A study of Mus musculus with 19 samples.

Results

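Ligands and receptors of the VEGF and angiopoietin systems were followed across mouse embryonic kidney cells by RNA sequencing. The 10 genes were taken by symbol from both expression tables, out of 20103 gene names that the tables share. They are 3 VEGF ligand genes (Vegfa, Vegfb, Vegfc), 3 VEGF receptor genes (Kdr, Flt1, Flt4), 2 angiopoietin genes (Angpt1, Angpt2) and the 2 TIE receptor genes (Tek, Tie1). The 19 libraries, all from CFW kidneys, fell into 7 groups. At embryonic stage E16.5, nephrogenic zone cells (NZC, from the outer kidney where nephrons form) were profiled unsorted or as SIX2+ and SIX2- cells, with no allele given (n = 3 libraries each, titled mMARIS, MARIS being a method that sorts fixed cells on an intracellular protein). SIX2 is a transcription factor of nephron progenitors. Also at E16.5, GFP+ and GFP- cells came from developing kidneys with the allele Six2TGC/+, a transgene in which Six2 regulatory sequence drives GFP (n = 3 each). At E14.5, Tdt+ and Tdt- cells came from Foxd1Cre;Tdt kidneys, where cells with a history of Foxd1, a stromal progenitor gene, carry a red fluorescent protein and pass it to their descendants (n = 2 each). The series set nephron progenitors against stromal progenitors. The SIX2-, GFP- and Tdt- fractions are mixtures of cell types. The source of SIX2- and GFP- cells differed, being the nephrogenic zone for the SIX2 sort and the developing kidney for the GFP sort.

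VEGF-A, made by epithelial and mesenchymal cells, acts on endothelial cells through the receptor KDR (VEGFR2), whereas FLT1 (VEGFR1) binds it tightly and can act as a decoy. VEGF-B binds FLT1, and VEGF-C acts mainly through FLT4 (VEGFR3), a receptor of lymphatic and developing blood endothelium. Angiopoietin 1, typically made by cells around vessels, activates the endothelial receptor TEK (TIE2) and steadies vessels. Angiopoietin 2 can oppose it, and TIE1 is a related receptor that acts together with TEK. In the kidney, VEGF-A from the nephron draws endothelial cells into the glomerulus.

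Values are in RPKM, reads per kilobase of each gene's model relative to library depth, and so can be compared between genes per length. Differences are in log2(RPKM + 1), with standard errors (SE) and Benjamini-Hochberg adjusted p-values from limma's moderated test over all genes tested, and a gene was called at an adjusted p under 0.05. Nothing in the labels ties the libraries of a group to different animals, so the p-values reflect the spread among the libraries, and that spread may be technical. In sorted or whole tissue, fewer cells of a type and less RNA per cell cannot be told apart. All 10 genes reached the minimum of 1 RPKM in at least 3 E16.5 libraries and at least 2 E14.5 libraries. At E16.5, Kdr, Flt1, Angpt2, Tek and Tie1 reached 1 RPKM in no SIX2+ or GFP+ library, so they passed through the groups where they were high. At E14.5, Kdr, Flt1, Flt4 and Tie1 reached 1 RPKM in Tdt- libraries alone, so they passed through the group where they were high.

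Estimated depth was 26000000 to 45400000 reads in 14 of the 15 E16.5 libraries and 8440000 to 30400000 reads in the 4 E14.5 libraries, where the Tdt+ libraries had the 2 lowest values. NZC library 2 stood apart, at 3090000 reads, with Rn45s (ribosomal RNA) at 762 RPKM. Six2 ranged from 295 to 458 RPKM in SIX2+ and from 4.43 to 46.8 in SIX2- libraries, from 312 to 348 in GFP+ and from 2.7 to 16.8 in GFP- libraries. Foxd1 was at 102 and 205 in Tdt+ against 25.2 and 29.9 in Tdt- libraries, so these genes followed the labels. The 16 endothelial markers summed to 12.6 to 14.6 RPKM in SIX2+ and 11.0 to 18.6 in GFP+ libraries. They summed to 81.2 to 241 in SIX2-, 66.0 to 118 in GFP-, 64.3 to 422 in NZC, 118 and 145 in Tdt-, and 27.9 and 43.6 in Tdt+ libraries. Library 3 had the lowest sum in SIX2-, NZC and GFP-, at 40.6%, 18.6% and 58.1% of the mean of libraries 1 and 2. The same libraries had the highest sums of 8 nephron progenitor markers in their groups. In libraries 1 to 3 these were 49.1, 79.2 and 210 RPKM in SIX2- and 256, 260 and 649 in NZC. In GFP- they were 26.4, 27.8 and 68.2.

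**Figure D1:**
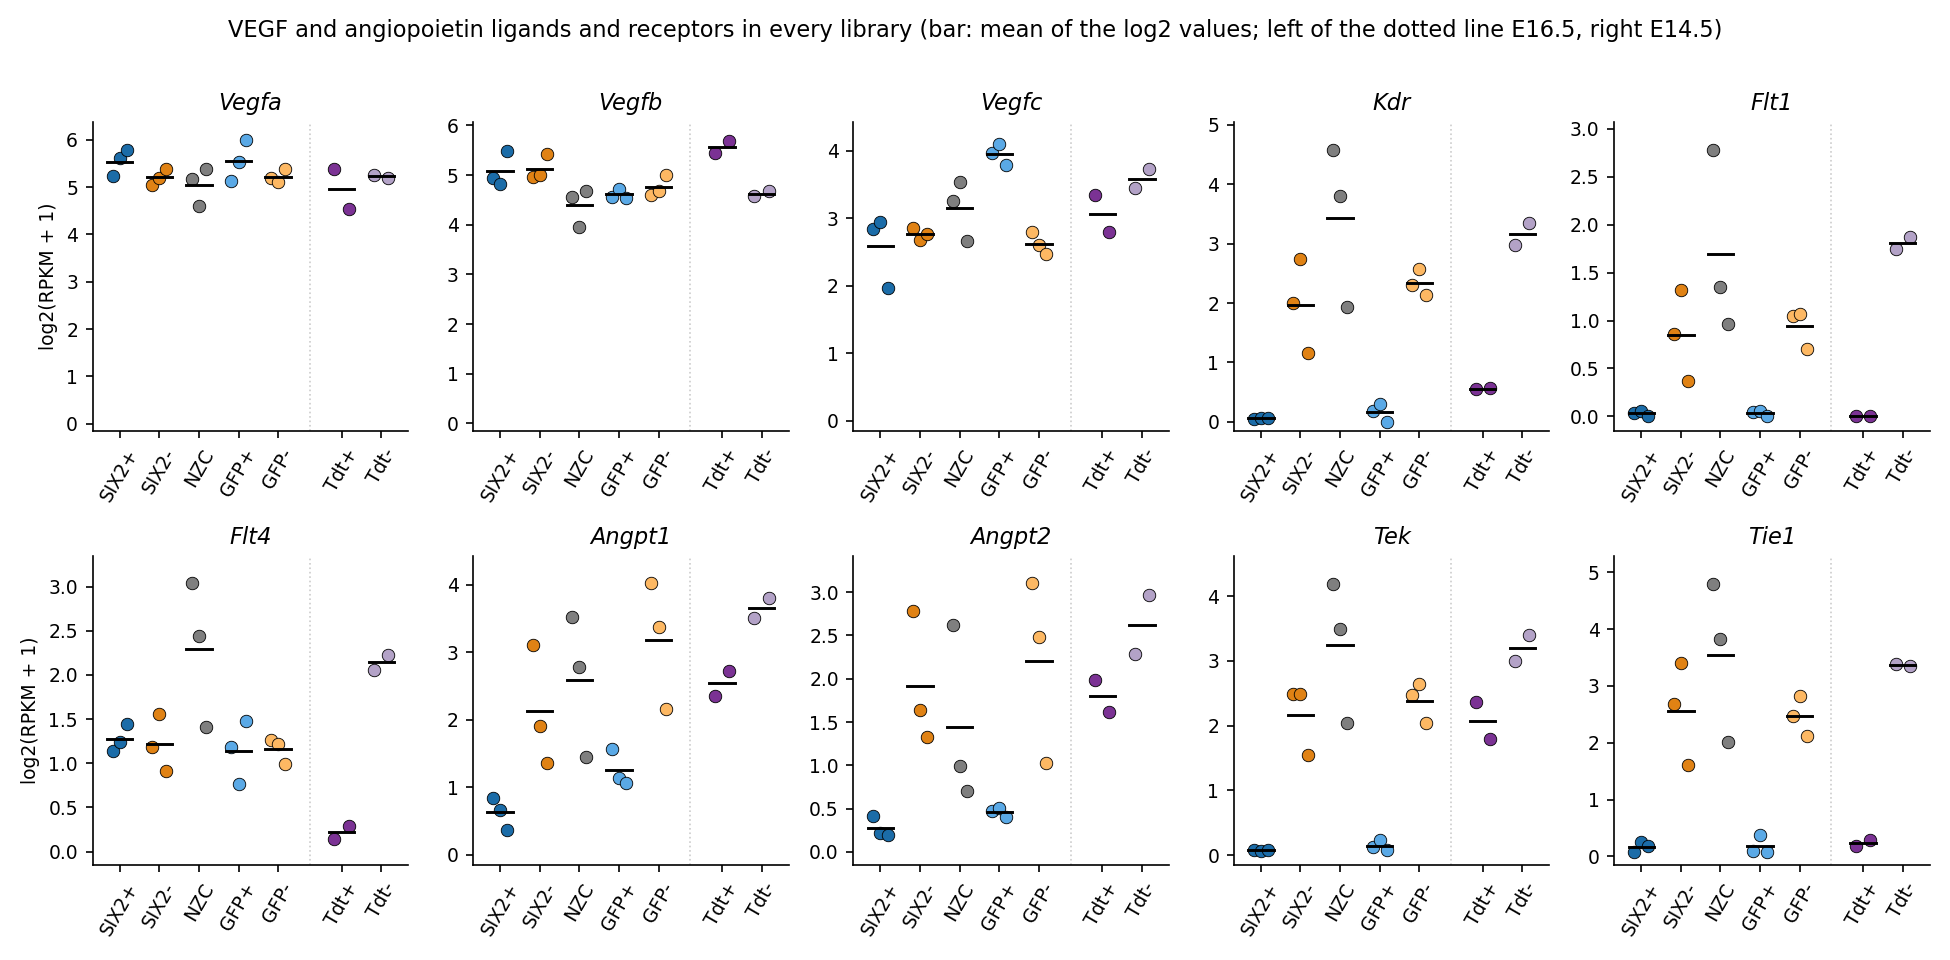
Levels of the 10 genes as log2(RPKM + 1) in each of the 19 libraries, with 1 point per library and a bar at the mean of the log2 values. The endothelial receptor genes Kdr, Flt1, Tek and Tie1 lay close to 0 in every SIX2+ and GFP+ library, whereas Vegfa and Vegfb were above 14 RPKM in every library.

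The VEGF receptor genes Kdr and Flt1 were nearly silent in nephron progenitors, and Kdr fell in all 3 positive fractions. Kdr (ENSMUSG00000062960.10, GRCm38 chromosome 5, 75932827 to 75978458, minus strand) encodes the main signalling receptor for VEGF-A. It was at 0.0402, 0.0521 and 0.0466 RPKM in SIX2+ libraries 1 to 3 and at 3.01, 5.67 and 1.23 in SIX2- libraries. In the GFP sort the GFP+ libraries had 0.138, 0.226 and 0 RPKM, and the GFP- libraries 3.91, 4.94 and 3.38. The groups did not overlap in either sort. Kdr fell by 1.90 ± 0.51 (SE, adjusted p = 0.0125) in SIX2+ relative to SIX2- cells and fell by 2.17 ± 0.51 (adjusted p = 0.00434) in GFP+ relative to GFP- cells. Without SIX2- library 2, the highest of that group, the first was -1.51 (adjusted p = 0.0696). With a pseudocount of 5, which damps low genes further, neither was called (-0.68, adjusted p = 0.153, and -0.82, adjusted p = 0.0652). In the E14.5 table Kdr was at 0.464 and 0.479 in Tdt+ and at 6.90 and 9.17 in Tdt- libraries, and fell by 2.61 ± 0.25 (adjusted p = 0.00144), a call that ended with no filter on low values (adjusted p = 0.0507). Unsorted NZC held the highest levels, at 22.8, 13 and 2.83 RPKM, and library 3 lay far below libraries 1 and 2, as the summed endothelial markers did.

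Flt1 (ENSMUSG00000029648.13, chromosome 5, 147561604 to 147726011, minus strand) was the lowest of the receptor genes. Its membrane and soluble forms cannot be told apart in values per gene. It was at 0.0233, 0.0383 and 0.00367 RPKM in SIX2+ libraries and at 0.819, 1.5 and 0.288 in SIX2- libraries. It was at 0.0299, 0.0408 and 0.00494 in GFP+ and at 1.07, 1.09 and 0.626 in GFP- libraries. The groups did not overlap in either sort, but the differences of -0.82 ± 0.36 (adjusted p = 0.124) and -0.90 ± 0.36 (adjusted p = 0.0688) were not called on the log2(RPKM + 1) scale, which compresses low values. With a pseudocount of 0.1 they were -2.78 (adjusted p = 0.00433) and -3.01 (adjusted p = 0.00201). With the groups compared alone the adjusted p was 0.0272 and 0.00112, and after rescaling to equal sums 0.0467 and 0.0143. With the replicate number as a block, the paired adjusted p in the GFP sort was 0.0432. Flt1 was listed at 0 in both Tdt+ libraries and stood at 2.36 and 2.66 in the Tdt- libraries, which was called (adjusted p = 0.00327), and no fold is given against 0. Unsorted NZC had 5.88, 1.54 and 0.952 RPKM, with the highest value in library 1.

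Because Kdr, Flt1 and Tek were all near 0 in SIX2+ and GFP+ cells and highest in NZC library 1, the stretches just upstream of their starts are shown, from RefSeq's annotation of GRCm38.p6. Tie1 had the same pattern, but its window is not printed because an annotated exon begins after its first 38 bases. Capitals mark AGGAAG, a stretch around the GGAA core that ETS factors bind, a family with known roles in endothelial genes.
Kdr, 247 bases, chr5:75978459-75978705, minus strand: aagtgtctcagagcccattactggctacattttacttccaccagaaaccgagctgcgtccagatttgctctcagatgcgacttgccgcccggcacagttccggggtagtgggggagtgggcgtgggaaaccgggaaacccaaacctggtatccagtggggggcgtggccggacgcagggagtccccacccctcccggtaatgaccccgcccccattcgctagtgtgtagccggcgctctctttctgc
Flt1, 250 bases, chr5:147726012-147726261, minus strand: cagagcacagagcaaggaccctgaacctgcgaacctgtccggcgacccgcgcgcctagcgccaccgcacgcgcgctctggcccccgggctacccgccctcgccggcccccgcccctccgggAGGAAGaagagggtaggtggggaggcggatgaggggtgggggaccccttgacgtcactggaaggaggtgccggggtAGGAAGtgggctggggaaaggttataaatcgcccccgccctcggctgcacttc
Tek, 250 bases, chr4:94739039-94739288, plus strand: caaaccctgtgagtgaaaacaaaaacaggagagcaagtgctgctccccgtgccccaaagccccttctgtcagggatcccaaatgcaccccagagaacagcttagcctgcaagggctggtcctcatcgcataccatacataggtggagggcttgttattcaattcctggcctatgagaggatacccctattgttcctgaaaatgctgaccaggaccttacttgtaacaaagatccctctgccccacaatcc
RefSeq windows were matched for 8 of the 10 genes. AGGAAG, searched on both strands in the 250 bases before each start, occurred 2 times in the Flt1 window and once in that of Tie1, and was not among the letters of the Kdr and Tek windows. AGGAAG occurs in 29.5% of all 32851 RefSeq windows of that length. The shorter core GGAA, read as TTCC on the other strand, was not counted, and it is present in the printed Kdr and Tek sequences. ACGTG, the core of the hypoxia response element, occurred in 1 of the 2 windows of Vegfa and in no window of the other 7 genes, against 16.6% of all windows. The windows also differed in base composition. The Tek window had 51.2% G and C and 2 CpG pairs, the Kdr window 61.6% and 16, and the Flt1 window 70.4% and 23, where the median over all windows was 52.4% and 6. These matches and counts describe the letters in the windows and were not set against binding data.

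Both TIE receptor genes fell in the nephron progenitor sorts, and Tie1 fell in the stromal sort. Tek (ENSMUSG00000006386.15, chromosome 4, 94739289 to 94874976, plus strand), the angiopoietin receptor, was at 0.0622, 0.0465 and 0.0540 RPKM in SIX2+ and at 4.62, 4.58 and 1.91 in SIX2- libraries. In the GFP sort it was at 0.0899, 0.174 and 0.0528 in GFP+ and at 4.56, 5.22 and 3.12 in GFP- libraries. No positive library reached the level of any negative library. Tek fell by 2.09 ± 0.41 (adjusted p = 0.00155) in the SIX2 sort and fell by 2.24 ± 0.41 (adjusted p = 0.000714) in the GFP sort, and it was called under each of the 18 alternatives run for either sort. In Tdt+ libraries Tek was at 4.15 and 2.45 RPKM, against 7.01 and 9.52 in Tdt- libraries. These groups did not overlap, and the difference of -1.12 ± 0.30 was not called (adjusted p = 0.0604). With the replicate number as a block it was called (adjusted p = 0.00225). Without Tdt+ library 1, which leaves 1 library assumed to vary like the other group, it was -1.41 (adjusted p = 0.00855).

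Tie1 (ENSMUSG00000033191.14, chromosome 4, 118471191 to 118490061, minus strand), which encodes the TEK-related receptor, was at 0.0565, 0.197 and 0.131 RPKM in SIX2+ and at 5.41, 9.54 and 2.04 in SIX2- libraries. It was at 0.0727, 0.291 and 0.0560 in GFP+ and at 4.55, 6.04 and 3.35 in GFP- libraries. No positive library reached a negative one. Tie1 fell by 2.39 ± 0.54 (adjusted p = 0.00461) in the SIX2 sort and fell by 2.29 ± 0.54 (adjusted p = 0.00493) in the GFP sort. With a pseudocount of 5 these calls ended (-0.99, adjusted p = 0.0627, and -0.90, adjusted p = 0.0723). In the E14.5 table it was at 0.136 and 0.214 in Tdt+ and at 9.40 and 9.24 in Tdt- libraries, and fell by 3.14 ± 0.24 (adjusted p = 0.000652). Tie1 was thus near its floor in the 2 Tdt+ libraries, where Tek stood at 2.45 RPKM or more. As means, Tie1 was at 0.175 ± 0.0553 and Tek at 3.3 ± 1.2 RPKM in Tdt+ cells (SD, n = 2), and at 9.32 ± 0.114 and 8.26 ± 1.77 in Tdt- cells. Whether the change of Tek differs from that of Tie1 was not tested. In unsorted NZC, Tek was at 17.2, 10.3 and 3.10 and Tie1 at 26.7, 13.2 and 3.06 RPKM, both lowest in library 3.

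Flt4 (ENSMUSG00000020357.3, chromosome 11, 49609263 to 49652739, plus strand), the VEGF-C receptor, was the 1 receptor gene measured above 0.7 RPKM in every SIX2+ and GFP+ library. It was at 1.21, 1.37 and 1.72 RPKM in SIX2+ and at 1.28, 1.95 and 0.877 in SIX2- libraries, and at 1.27, 0.702 and 1.79 in GFP+ and at 1.4, 1.32 and 0.993 in GFP- libraries. The groups overlapped in both sorts. The differences were 0.06 (95% interval -0.64 to 0.76) and -0.02 (-0.71 to 0.68), which leaves differences of either sign within the intervals. In the E14.5 table Flt4 was at 0.108 and 0.223 in Tdt+ and at 3.17 and 3.67 in Tdt- libraries, and fell by 1.92 ± 0.23 (adjusted p = 0.00314). Unsorted NZC had 7.21, 4.41 and 1.65 RPKM. Relative to NZC, Flt4 was lower in SIX2+ (-1.02 ± 0.33, adjusted p = 0.026) and SIX2- cells (-1.07 ± 0.33, adjusted p = 0.0488). Both calls were lost without NZC library 1 (-0.64, adjusted p = 0.105, and -0.70, adjusted p = 0.106) and without NZC library 2 (-0.94, adjusted p = 0.0585, and -1.0, adjusted p = 0.0952). They were also lost without SIX2+ libraries 1 or 2 (adjusted p = 0.0778 and 0.0639) and without any 1 of the SIX2- libraries (adjusted p from 0.0804 to 0.134). Of 16 alternatives, 10 kept the SIX2+ call and 7 the SIX2- call.

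Both angiopoietin genes were lower in nephron progenitors and varied several-fold among the negative libraries. Angpt1 (ENSMUSG00000022309.9, chromosome 15, 42424723 to 42676977, minus strand), the TEK agonist, was at 0.787, 0.592 and 0.294 RPKM in SIX2+ and at 7.63, 2.74 and 1.57 in SIX2- libraries. It was at 1.97, 1.21 and 1.09 in GFP+ and at 15.3, 9.32 and 3.45 in GFP- libraries. Groups did not overlap in either sort, and library 1 was highest and library 3 lowest in each of these 4 groups. Angpt1 fell by 1.92 ± 0.54 (adjusted p = 0.0142) in the GFP sort, a call lost without GFP- library 1 (-1.50, adjusted p = 0.0749). In the SIX2 sort the difference of -1.50 ± 0.54 was not called (adjusted p = 0.0598). It was called in the paired fit, with the replicate number as a block (adjusted p = 0.00245), with the replicate 1 and 2 libraries of every group (-1.75, adjusted p = 0.0233) and without SIX2- library 3 (-1.88, adjusted p = 0.0336). At E14.5 Angpt1 was at 4.13 and 5.63 in Tdt+ and at 10.4 and 13 in Tdt- libraries, and fell by 1.11 ± 0.26 (adjusted p = 0.0402). That call was lost without either Tdt- library (adjusted p = 0.266 and 0.498), with no filter (0.127), after quantile normalisation (0.0925) and with median-of-ratios scaling (0.0651). An antisense gene, Gm17473, overlaps exons of Angpt1 in the GENCODE annotation, and whether counting used strand is not given in the sources used here.

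Angpt2 (ENSMUSG00000031465.6, chromosome 8, 18690263 to 18741562, minus strand), which can block TEK, was at 0.328, 0.166 and 0.149 RPKM in SIX2+ and at 5.87, 2.11 and 1.51 in SIX2- libraries. It was at 0.389, 0.425 and 0.322 in GFP+ and at 7.60, 4.60 and 1.03 in GFP- libraries. Angpt2 fell by 1.64 ± 0.53 (adjusted p = 0.0364) and fell by 1.74 ± 0.53 (adjusted p = 0.0218), with no overlap between the groups. The first was lost after quantile normalisation (adjusted p = 0.0686), without a filter (0.0698) and at a pseudocount of 5 (0.112). It was also lost without any 1 of the SIX2+ libraries or SIX2- libraries 1 or 2 (adjusted p from 0.0615 to 0.179). The second was lost without any 1 of the GFP+ libraries or GFP- libraries 1 or 2 (0.0526 to 0.109). In Tdt+ libraries Angpt2 was at 2.96 and 2.07, against 3.86 and 6.83 in Tdt- libraries, a difference of -0.82 ± 0.31 that was not called (adjusted p = 0.161). With the replicate number as a block it was called (adjusted p = 0.0301). Angpt1 and Angpt2 were thus both measured at 2 RPKM or more in Tdt+ libraries, whereas Kdr, Flt1, Flt4 and Tie1 were below 0.5 there. In unsorted NZC, Angpt1 was at 10.5, 5.89 and 1.72 and Angpt2 at 5.16, 0.995 and 0.629.

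Among the VEGF ligand genes, Vegfc rose in the GFP sort and Vegfb in the Tdt sort, and Vegfa was called in none of the 3 sorts. Vegfa (ENSMUSG00000023951.17, chromosome 17, 46016993 to 46032369, minus strand) was the most abundant of the 10 genes in SIX2+ and GFP+ cells, per length. Its splice forms, which differ in matrix binding, cannot be told apart here. It was at 36.5, 47.6 and 53.8 RPKM in SIX2+, 32.1, 35.5 and 40.6 in SIX2-, and 34.8, 23.4 and 40.7 in NZC libraries. It was at 34.1, 45.1 and 62.6 in GFP+ and at 35.6, 33.2 and 40.4 in GFP- libraries. The groups overlapped, and the SIX2 and GFP sorts gave the same difference of 0.33 (95% interval -0.16 to 0.82 in each, adjusted p = 0.353 and 0.292). In the E14.5 table Vegfa was at 40.9 and 22.2 in Tdt+ and at 37.2 and 35.7 in Tdt- libraries, a difference of -0.26 ± 0.30 (adjusted p = 0.646). Without Tdt+ library 1 it was -0.69 and without Tdt+ library 2 it was 0.16, and each of these fits leaves 1 Tdt+ library. Over all 19 libraries Vegfa stayed between 22.2 and 62.6 RPKM.

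Vegfb (ENSMUSG00000024962.13, chromosome 19, 6982473 to 6987651, minus strand), the FLT1 ligand, was at 29.6, 27.4 and 43.6 RPKM in SIX2+, 30.0, 31.2 and 42.2 in SIX2-, and 22.6, 14.6 and 24.7 in NZC libraries. It was at 22.5, 25.5 and 22.4 in GFP+ and at 23.1, 24.8 and 30.9 in GFP- libraries. Positive and negative groups overlapped in both sorts (-0.05, 95% interval -0.51 to 0.40, and -0.15, -0.60 to 0.31). At E14.5 it was at 42.3 and 50.6 in Tdt+ against 22.8 and 24.6 in Tdt- libraries and rose by 0.94 ± 0.22 (adjusted p = 0.0384), the 1 of the 10 genes called higher in Tdt+ than in Tdt- cells. That call was lost after rescaling to equal sums (0.73, adjusted p = 0.145), after quantile normalisation (0.83, adjusted p = 0.0616), with no filter (adjusted p = 0.0855), with no variance trend (0.0526) and without either Tdt- library (0.88, adjusted p = 0.388, and 0.99, adjusted p = 0.323). Vegfb was also higher in SIX2+ (0.68 ± 0.21, adjusted p = 0.0232) and SIX2- cells (0.73 ± 0.21, adjusted p = 0.0426) than in unsorted NZC. Without NZC library 2, where it was lowest, these were 0.46 (adjusted p = 0.0846) and 0.51 (adjusted p = 0.113). The first was lost without SIX2+ library 3 too (0.48, adjusted p = 0.11), and the second without any 1 SIX2- library (adjusted p from 0.0739 to 0.133). After rescaling to equal sums neither was called (adjusted p = 0.0796 and 0.121), nor with the compared groups alone (0.11 and 0.197). Of 17 alternatives, 13 kept the first call and 7 the second.

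Vegfc (ENSMUSG00000031520.6, chromosome 8, 54077606 to 54187096, plus strand), the FLT4 ligand, was higher in nephron progenitors of the reporter sort. It was at 14.6, 16.2 and 12.8 RPKM in GFP+ and at 5.97, 5.08 and 4.54 in GFP- libraries, with no overlap, and rose by 1.32 ± 0.25 (adjusted p = 0.000987). It was called under each of the 18 alternatives run. In the SIX2 sort it was at 6.14, 6.71 and 2.91 in SIX2+ and 6.27, 5.41 and 5.77 in SIX2- libraries, which overlapped (-0.18, 95% interval -0.72 to 0.35). The test of the difference between the sorts gave -1.51 ± 0.36 (unadjusted p = 0.000812, adjusted p = 0.137), which was not called over all genes. With the replicate number as a block the paired adjusted p was 0.031, and with the 4 sorted groups alone it was 0.0401. Unsorted NZC had 8.55, 10.6 and 5.35 RPKM. At E14.5 Vegfc was at 9.14 and 5.93 in Tdt+ and 9.91 and 12.2 in Tdt- libraries, with no overlap and a difference of -0.52 ± 0.28 (adjusted p = 0.315). Leaving out 1 library gave differences from -0.80 (without Tdt+ library 1, which leaves 1 Tdt+ library) to -0.25.

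**Figure D2:**
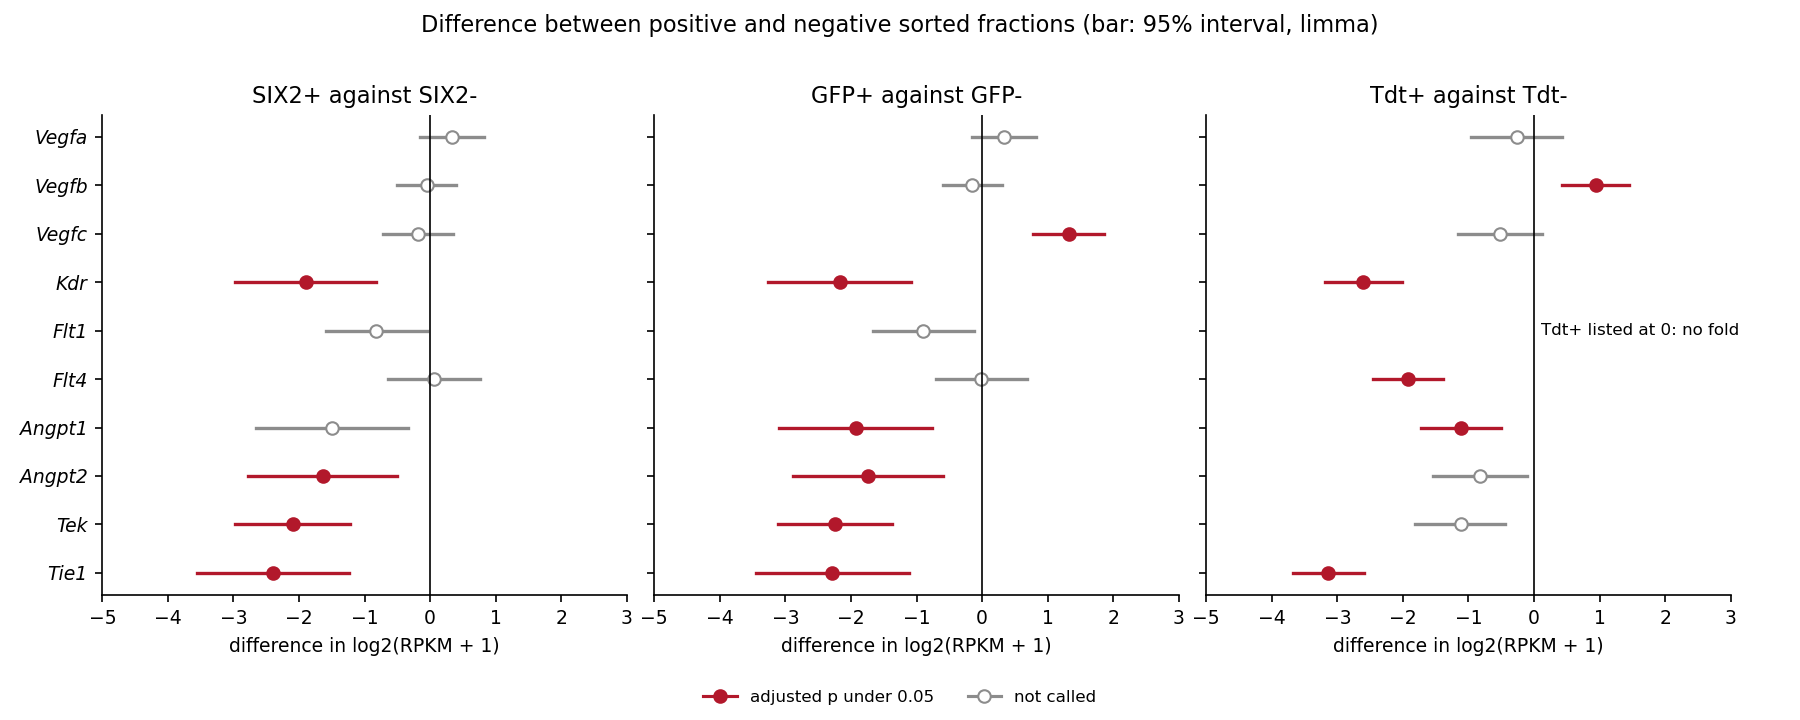
Differences in log2(RPKM + 1) between the positive and negative fraction of each sort (points), with 95% intervals from limma, filled red where the adjusted p was under 0.05. Kdr and Tie1 were called lower in all 3 sorts, whereas Vegfa was called in none, and no fold is drawn for Flt1 in the Tdt sort because it was listed at 0 in Tdt+ cells.

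Counted together, 4 of the 10 genes were called in SIX2+ against SIX2- cells, all lower, where 24.3% of all 12818 genes tested were called, 8.37% higher and 15.9% lower. In GFP+ against GFP- cells 5 were lower and 1 higher, where 32.9% of all genes were called, 15.9% higher and 17.0% lower. In Tdt+ against Tdt- cells 5 were lower and 1 higher, where 8.43% of 12384 genes were called, 1.22% higher and 7.21% lower. The median difference of the 10 genes was -1.16, -1.32 and -1.12 in the 3 sorts, against 0.04, 0.09 and -0.04 over all genes. Groups without overlap were found for 6 of the 10 genes in the SIX2 sort, all lower (24.9% of all genes were lower and 22.5% higher without overlap), for 6 lower and 1 higher in the GFP sort (24.4% and 28.7%), and for 8 lower and 1 higher in the Tdt sort (31.0% and 23.6%). None of the 10 genes was called in the limma test of the difference between the SIX2 and GFP sorts, where 0.140% of all genes were called, 0.0468% higher and 0.0936% lower, and 703 genes had an unadjusted p under 0.05. Vegfc was the 1 gene of the 10 with an unadjusted p under 0.05 there. For the receptor and angiopoietin genes the difference between the sorts lay between -0.10 (Tie1, 95% interval -1.75 to 1.54) and 0.42 (Angpt1, -1.22 to 2.07).

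Against their unsorted source, 7 genes were called in SIX2+ cells, Vegfb higher and 6 lower, where 36.6% of all genes were called, 18.1% higher and 18.5% lower. Groups without overlap were found for 1 gene higher and 6 lower (23.6% and 21.6% of all genes). Kdr fell by 3.37 ± 0.51 (adjusted p = 0.000229), Tie1 fell by 3.37 ± 0.54 (adjusted p = 0.000405) and Tek fell by 3.16 ± 0.41 (adjusted p = 6.53e-05). Flt1 fell by 1.67 ± 0.36 (adjusted p = 0.00315) and Angpt1 fell by 1.96 ± 0.54 (adjusted p = 0.0128), the latter lost without NZC library 1 (-1.49, adjusted p = 0.0516). Without NZC library 2, which stood apart, 5 genes were called, with Kdr at -3.19 (adjusted p = 0.00103), Tie1 at -3.23 (0.00162), Tek at -3.04 (0.000312), Flt1 at -1.84 (0.00321) and Angpt1 at -1.86 (0.0327). In SIX2- cells against NZC, 2 genes were called, Vegfb higher and Flt4 lower, where 11.1% of all genes were called, 5.16% higher and 5.95% lower, and without NZC library 2 the count was 0. Groups without overlap were found for 1 gene higher and 0 lower (16.6% and 12.5% of all genes). Kdr, Flt1, Tek and Tie1 differed there by -1.47, -0.85, -1.07 and -0.99 with adjusted p of 0.0709, 0.129, 0.0971 and 0.226. In the paired fit, with the replicate number as a block, 4 genes were called, among them Kdr (adjusted p = 0.031) and Tek (adjusted p = 0.0395). Without NZC library 3, the low one, Kdr was at -2.22 (adjusted p = 0.00494), Flt1 at -1.21 (0.0326), Tek at -1.67 (0.00621) and Tie1 at -1.75 (0.0188), all called. The 2 comparisons with NZC share the NZC libraries.

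Kdr, Tie1 and Tek moved with the endothelial markers from library to library among the SIX2-, NZC and GFP- libraries. Relative to those markers they were lower in SIX2- than in NZC and GFP- libraries. Over the 9 SIX2-, NZC and GFP- libraries, the summed markers spanned 6.56-fold, Kdr 18.6-fold, Tie1 13.1-fold and Tek 9.03-fold. Per 100 RPKM of summed markers, Tek spanned 2.53-fold (1.90 to 4.82 RPKM), Tie1 2.52-fold (2.51 to 6.34) and Kdr 3.58-fold (1.51 to 5.40). In this ratio every SIX2- library lay below every NZC and GFP- library for these genes. Kdr was at 1.51 to 2.36 in SIX2- against 3.6 to 5.40 in NZC and GFP- libraries. Tek was at 1.90 to 2.89 against 3.8 to 4.82, and Tie1 at 2.51 to 3.97 against 4.19 to 6.34. Flt1 spanned 20.4-fold in RPKM and 4.19-fold per 100 RPKM of markers. Flt4 spanned 8.23-fold and 3.22-fold (0.799 to 2.57 RPKM per 100), but in the 6 SIX2+ and GFP+ libraries it was at 3.77 to 16.2 per 100 RPKM of markers, above all 9 of those libraries. The angiopoietin genes did not narrow in this way. Angpt1 spanned 9.73-fold in RPKM and 12.3-fold per 100 RPKM of markers, and Angpt2 12.1-fold and 19.0-fold. Vegfa spanned 1.74-fold in RPKM and 7.67-fold per 100 RPKM of markers.

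In SIX2+ and GFP+ libraries the endothelial markers were not all at the floor. Egfl7 was at 6.19 ± 0.211 RPKM in SIX2+ and 3.92 ± 0.645 in GFP+ cells, Plvap at 1.82 ± 0.537 and 4.71 ± 0.524, and Cldn5 at 2.63 ± 1.63 and 2.59 ± 1.68 (SD, n = 3), and these made up most of the sum, whereas the defining markers Pecam1 and Cdh5 were at 0.209 and 0.151 in SIX2+ and at 0.134 and 0.151 in GFP+ cells. Of 15 endothelial markers tested, 12 fell in the SIX2 sort and 9 in the GFP sort, and none rose. In Tdt+ libraries Sox17 and Sox7 were listed at 0 and Pecam1 was at 0.172 ± 0.109, whereas Emcn was at 12.4 ± 5.73 and Eng at 7.78 ± 0.0297 (SD, n = 2), and 10 of 14 endothelial markers tested fell. Mural markers, which mark the cells around vessels, summed to 222 to 327 RPKM in SIX2-, 245 to 373 in GFP-, 95.9 to 258 in NZC and 18 to 36.8 in SIX2+ and GFP+ libraries, and to 223 and 240 in Tdt+ against 212 and 377 in Tdt- libraries. All 10 mural markers fell in the GFP sort and 9 of 10 in the SIX2 sort, and none of 10 was called in the Tdt sort. Leukocyte markers summed to 87.9 to 124 in SIX2- and 88.3 to 126 in GFP- libraries, against 1.27 to 11.7 in SIX2+ and 1.08 to 5.84 in GFP+. Stromal markers summed to 33.2 to 46.3 in SIX2+ against 1080 to 1746 in SIX2-, 52.4 to 73.6 in GFP+ against 2068 to 3050 in GFP-, and 1487 and 2358 in Tdt+ against 2321 and 3180 in Tdt- libraries. Of 8 stromal markers tested in the Tdt sort, Foxd1 alone was called higher in Tdt+ cells and 2 were called lower. Tubule markers summed to 1.45 to 1.83 in SIX2+ against 13.8 to 49.2 in SIX2-, and 2.19 to 2.92 in GFP+ against 11.8 to 16.3 in GFP- libraries. Erythroid markers summed to 272 to 2979 in NZC but 3.91 to 16.3 in SIX2- and 0.352 to 1.76 in SIX2+ libraries, and to 11.4 to 50.9 in GFP+ against 818 to 8439 in GFP- libraries. These marker counts stand beside 8.37% of all genes called higher and 15.9% lower in the SIX2 sort. The shares were 15.9% and 17.0% in the GFP sort and 1.22% and 7.21% in the Tdt sort. The part of each cell type in the levels of the 10 genes was not tested.

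**Figure D3:**
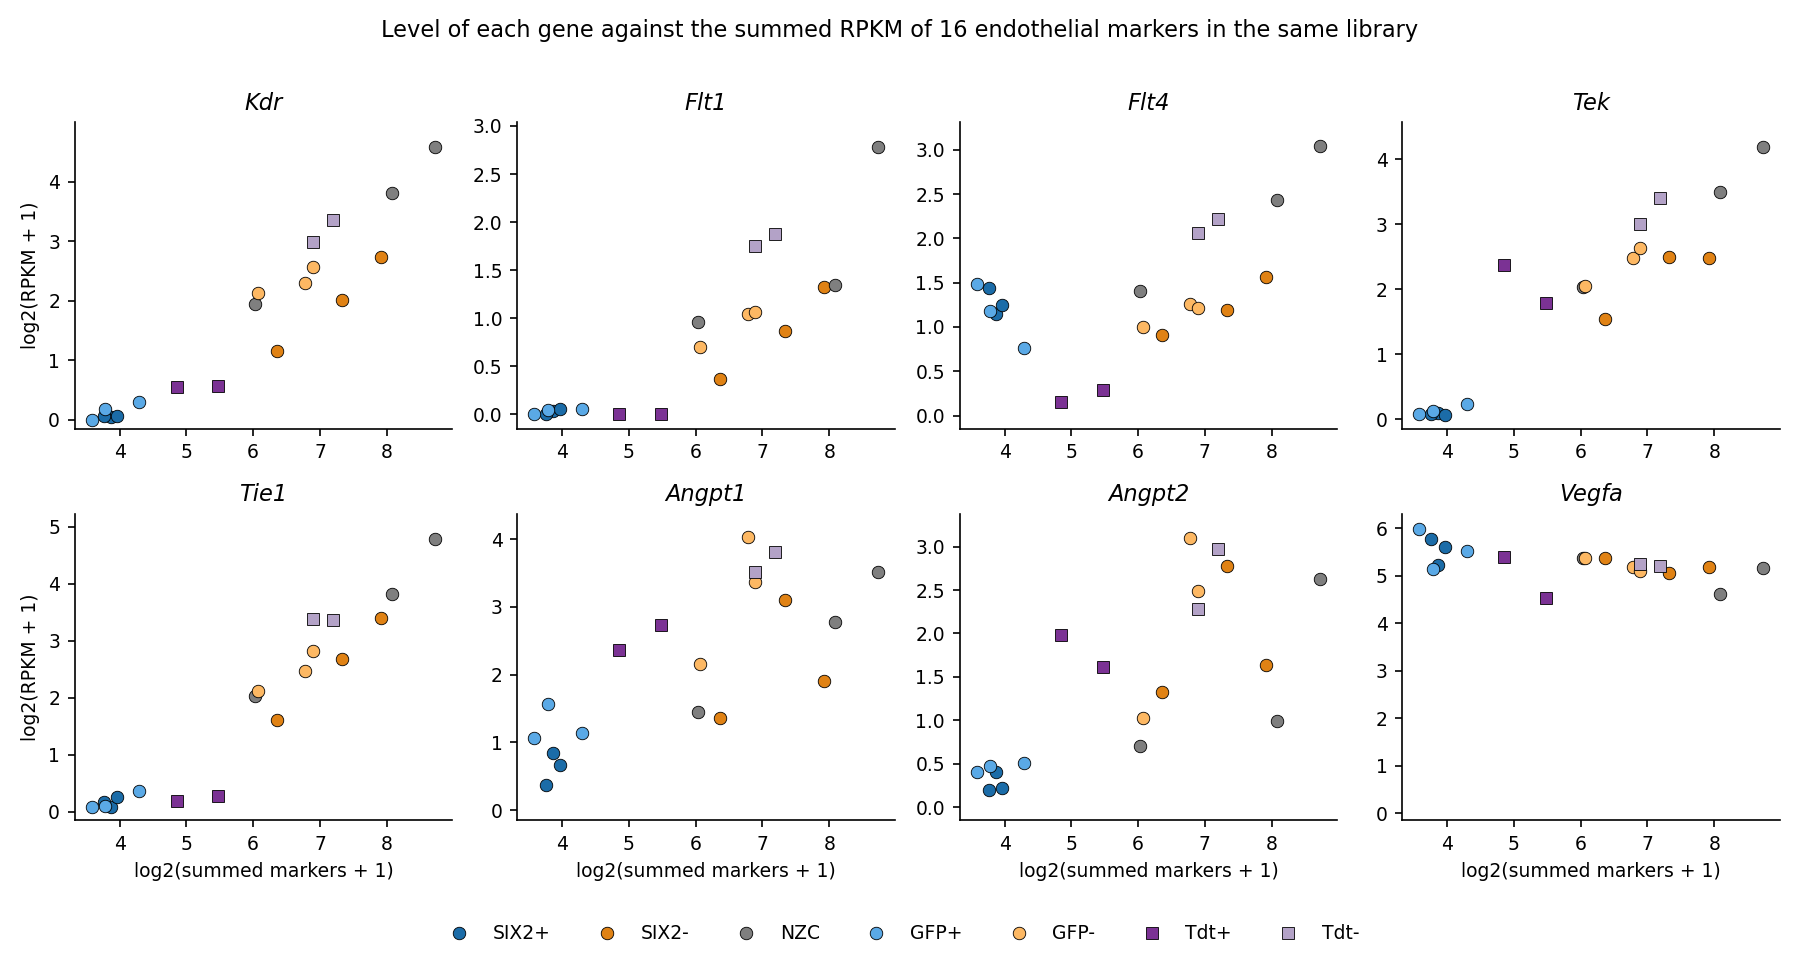
Level of 8 of the genes against the summed RPKM of 16 endothelial markers in the same library, both as log2 of the value plus 1, with circles for E16.5 and squares for E14.5. Kdr and Tie1 were lowest in SIX2+ and GFP+ libraries and highest in NZC library 1. Relative to the markers, both were lower in SIX2- than in NZC and GFP- libraries. Tek was higher relative to the markers in the Tdt+ libraries than in any E16.5 library. Vegfa stayed between 22.2 and 62.6 RPKM across the range.

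The genes whose pattern across the 15 E16.5 libraries was most like each of the 10 genes were listed by Pearson r of log2(RPKM + 1), as a description over libraries that share their sort and depth. For Tie1 the 3 closest were Pecam1 (0.999), an endothelial adhesion gene, Aplnr (0.993), the apelin receptor gene, and Gimap4 (0.991). Kdr was closest to Pecam1 (0.991), Cd93 (0.989) and Dysf (0.978), and Tek to Cdh5 (0.989), the gene of VE-cadherin, Pecam1 (0.988) and Sdpr (0.983). Flt1 was closest to Apold1 (0.967), Aplnr (0.966) and Rasip1 (0.956). For Flt4 the highest values were lower, at 0.886 for Eogt, 0.824 for Fam43a and 0.821 for Adgrl4. Angpt1 was closest to Mctp2 and Zeb2 (0.978 each) and Synpo2 (0.972), and Angpt2 to Arl4a (0.969), Ptx3 (0.966) and Tnfaip8 (0.955). Vegfc was closest to Slit2 (0.889), a guidance factor gene, Enpp2 (0.868) and Nxph1 (0.866), all with their highest group mean in GFP+ cells. Vegfa was closest to Fam73b (0.947), Pigo (0.935) and Tmem132a (0.931), and Vegfb to Ptms (0.954), Cops7a (0.946) and Srm (0.935). Without NZC library 2 the closest gene was the same for Vegfa, Flt4, Angpt2, Tek and Tie1 and another for the other 5 genes.

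Other ligand genes of these families split in opposite directions in the nephron progenitor sorts. Pgf, the placental growth factor gene and a FLT1 ligand, rose from 2.27 ± 0.379 RPKM in SIX2- to 20.4 ± 3.82 in SIX2+ cells (2.70 ± 0.19 SE, adjusted p = 1.69e-07) and from 1.83 ± 0.513 in GFP- to 14.2 ± 1.88 in GFP+ cells (2.44 ± 0.19, adjusted p = 3.38e-07). Figf, the older symbol of Vegfd, which encodes another FLT4 ligand, was at 0.122 ± 0.0446 in SIX2+ against 17.2 ± 6.26 in SIX2- cells and at 0.205 ± 0.101 in GFP+ against 22.4 ± 7.22 in GFP- cells (SD, n = 3). Figf fell by 3.97 in the SIX2 sort and fell by 4.23 in the GFP sort (SE 0.34 each). Angptl4, a lipoprotein lipase inhibitor, fell by 1.12 and fell by 1.46, the first lost without SIX2- library 1 (adjusted p = 0.0759). Of the 5 genes of this list tested, 1 rose and 3 fell in each sort. In Tdt+ cells Pgf fell by 2.58 ± 0.33 (adjusted p = 0.00379), from 7.48 ± 2.15 to 0.443 ± 0.526 RPKM (SD, n = 2), a call lost with no filter on low values (adjusted p = 0.0823). None of the other 3 tested was called, and without Tdt+ library 1 the list had 1 gene higher.

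Among co-receptors and receptor partners, 3 of 8 genes tested fell in the SIX2 sort and none rose, and in the GFP sort 5 fell and Gpc1 rose. The list's median difference was -0.60 and -1.17, against 0.04 and 0.09 over all genes. The count of 3 was 1 without SIX2- library 1, after quantile normalisation or with replicates 1 and 2 alone, and 5 with the compared groups alone. Plxnd1, a semaphorin receptor of endothelial cells, was at 3.93 ± 0.847 in SIX2+ against 43.7 ± 5.60 in SIX2- cells and fell by 3.19 ± 0.21, and it fell by 2.67 ± 0.21 in the GFP sort. Svep1, an extracellular TIE1 ligand, fell by 1.63 in the GFP sort. Gpc1, a heparan sulfate proteoglycan gene, rose by 0.94 ± 0.20 (adjusted p = 0.00219) in GFP+ cells, which was not called with replicates 1 and 2 alone (0.80, adjusted p = 0.0584), and fell by 1.33 ± 0.26 (adjusted p = 0.0207) in Tdt+ cells, the latter lost without Tdt- library 1 or 2 (adjusted p = 0.246 and 0.14). In the Tdt sort 4 of 8 genes fell and none rose, a count that was 2 without Tdt- library 1 and 0 without Tdt- library 2 or with no filter. Among them were Nrp2, a VEGF-C co-receptor gene, at -1.79 (without Tdt- library 2 -1.38, adjusted p = 0.127) and Hspg2, the perlecan gene, at -1.56 (without Tdt- library 1 or 2, adjusted p = 0.289 and 0.191).

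Most genes that bind or oppose VEGF fell in the nephron progenitor sorts. In SIX2+ cells 5 of 9 fell and 1 rose, and in GFP+ cells 7 fell and 1 rose, with list medians of -1.16 and -1.19. Sema3f, a semaphorin that acts through neuropilin 2, was the 1 that rose in each, by 1.56 ± 0.30 (adjusted p = 0.00137) and 2.10 ± 0.30 (adjusted p = 8.92e-05), to 75.5 ± 14.3 and 70.1 ± 21.4 RPKM. Sema3a, a neuropilin 1 ligand that competes with VEGF-A, fell by 3.33 and fell by 4.19 (SE 0.32), from 11.6 ± 4.49 RPKM in SIX2- and 26.0 ± 7.16 in GFP- cells. Thbs2, a thrombospondin gene, fell by 2.65 and fell by 3.79, and Ctgf, whose product binds VEGF-A, fell by 3.25 and fell by 3.24. In Tdt+ cells 2 of 9 fell, a count that was 0 without Tdt- library 2 and 4 without Tdt+ library 1. Thbs1, another thrombospondin gene, fell by 1.98 ± 0.37 (adjusted p = 0.0166), a call lost without Tdt- library 2 (-1.37, adjusted p = 0.144).

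Vegfa is induced through hypoxia-inducible factors, and 10 genes of that system were tested. Epas1, the gene of HIF2 alpha and known from endothelium, was at 0.190 ± 0.0691 RPKM in SIX2+ against 8.53 ± 2.45 in SIX2- cells (-2.97 ± 0.40, adjusted p = 7.80e-05) and fell by 2.80 in the GFP sort. Egln3, a prolyl hydroxylase gene that HIF itself induces, fell by 2.98 and fell by 2.67 (SE 0.23), and Hif3a, the gene of another alpha subunit, fell by 1.01 and fell by 1.29. In both sorts 4 of the 10 fell, and 6 were not called in the SIX2 sort and 5 in the GFP sort. The list medians were -0.04 and -0.19, against 0.04 and 0.09 over all genes. Cited2, an inhibitor of HIF, rose in GFP+ cells by 1.35 ± 0.22 (adjusted p = 0.000322), to 84.4 ± 10.4 RPKM, and was the 1 gene of this list that rose there. Without GFP+ library 2 or NZC library 2, 2 genes of the list were higher. Of 14 hypoxia-induced genes other than Vegfa, 4 fell in the SIX2 sort and 5 in the GFP sort and none rose, with list medians of 0.02 and -0.06 close to those of all genes. Adm, the adrenomedullin gene, fell by 1.83 and fell by 2.72. Ndrg1 fell by 1.27 and fell by 1.46, and P4ha2, a collagen prolyl hydroxylase gene, was at -1.06 and -0.99, called but lost in both sorts with the replicate 1 and 2 libraries alone (adjusted p = 0.121 and 0.074). In the Tdt sort none of the 10 regulators and none of 15 induced genes was called with limma. Without Tdt+ library 1, 3 regulators were lower and 1 higher, and 3 induced genes were higher, and without Tdt+ library 2, 1 regulator was lower.

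Of 13 genes that signal from or respond to endothelial receptors, 4 fell in the SIX2 sort, and 3 fell and 1 rose in the GFP sort. These counts rested on few libraries. The 4 became 1 without SIX2- library 1 or 2, and 2 without SIX2+ library 1 or 2, and without NZC library 2 a gene was called higher. The 3 became 1 without GFP+ library 3 or GFP- library 1 or 2. Rcan1, a calcineurin inhibitor gene, was at -0.45 in the SIX2 sort, a call lost when library 1 or 2 of either group was left out (adjusted p from 0.0577 to 0.127). Shb, an adaptor gene, was at 0.68 in the GFP sort and was the 1 higher, a call lost without any 1 GFP+ library or GFP- library 1 or 2 (adjusted p from 0.0874 to 0.175). Foxo1, a transcription factor gene downstream of AKT, was at -0.38 there, lost without GFP+ library 2 or 3 or any 1 GFP- library (adjusted p from 0.0871 to 0.15). Aplnr was at 0.0983 ± 0.0554 RPKM in SIX2+ and 5.32 ± 3.91 in SIX2- cells and fell by 2.28 ± 0.61 (adjusted p = 0.0129), lost without SIX2- library 1 (adjusted p = 0.052) or 2 (0.0711), and it fell by 2.92 ± 0.24 (adjusted p = 0.000775) in Tdt+ cells. Of 6 genes of VEGF-C processing and lymphatic identity, 5 fell in each nephron progenitor sort and none in the Tdt sort. With a minimum of 5 RPKM, which left fewer genes tested, 1 fell in each of the first sorts, without NZC library 2 a gene was also called higher in each, and without Tdt+ library 1 a gene was called lower in the Tdt sort. Reln, which encodes the secreted protein reelin and is expressed by lymphatic endothelium, was at 0.608 ± 0.0913 in SIX2+ against 14 ± 3.92 RPKM in SIX2- cells (-3.19 ± 0.21, adjusted p = 7.66e-08) and fell by 4.31 ± 0.21 in the GFP sort. None of the pathway lists was tested as a set, and each count stands beside 8.37% of all genes higher and 15.9% lower in the SIX2 sort, 15.9% and 17.0% in the GFP sort and 1.22% and 7.21% in the Tdt sort.

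**Figure D4:**
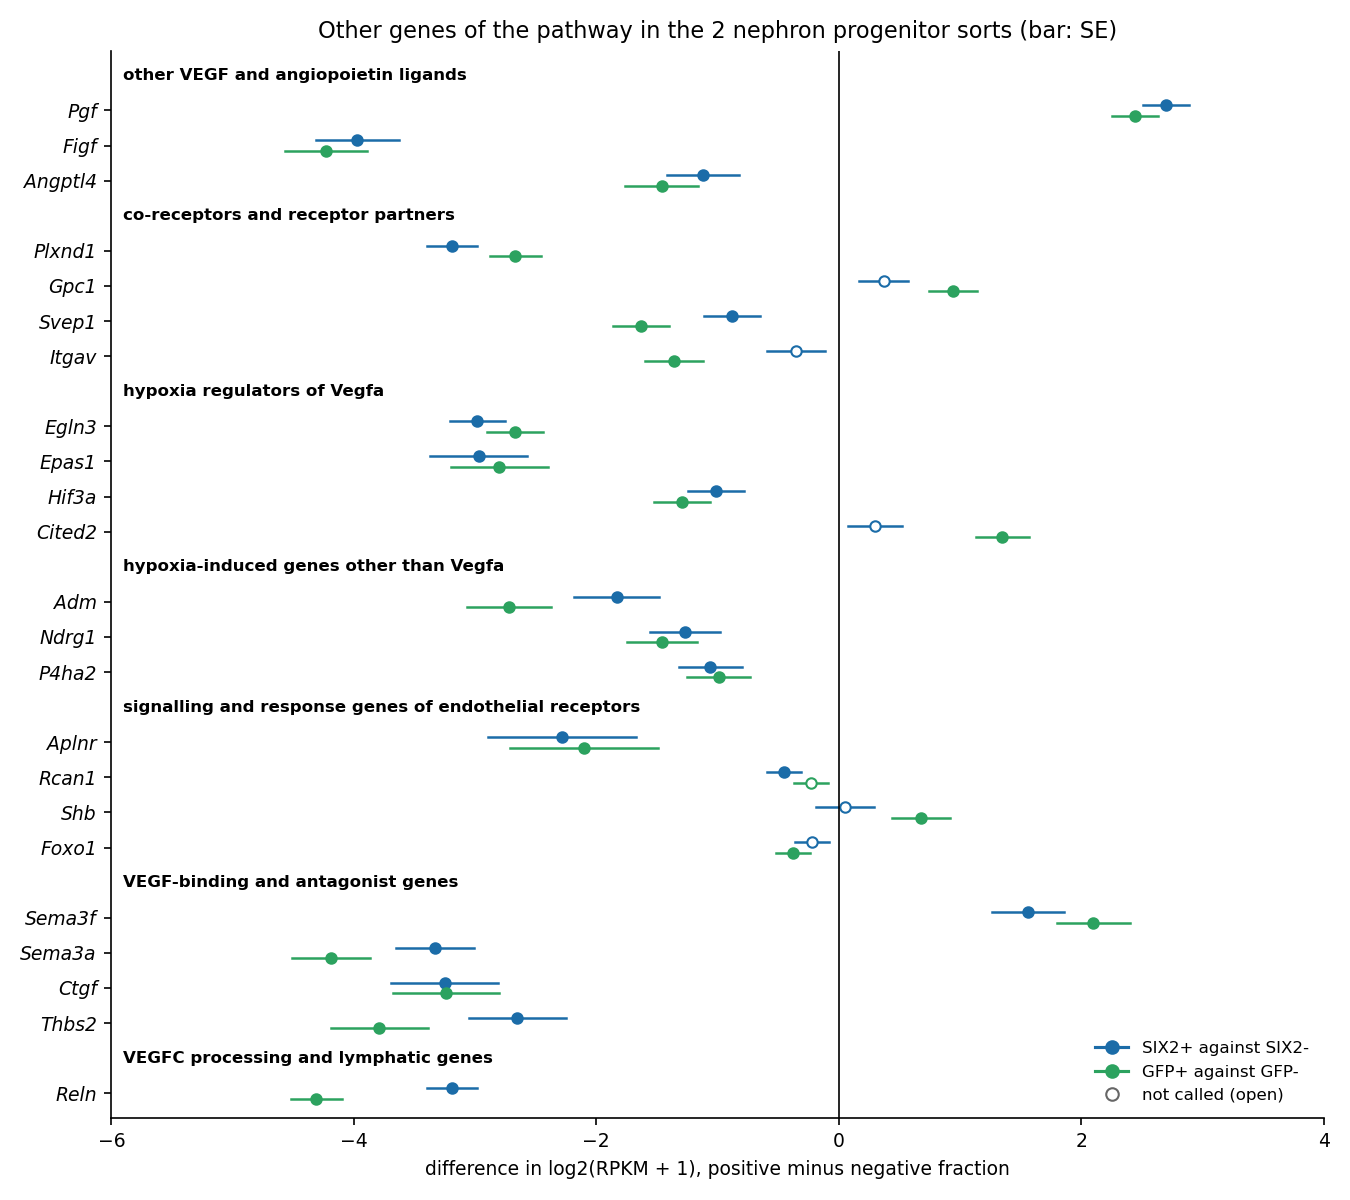
Differences in log2(RPKM + 1) between positive and negative fractions of the SIX2 sort (blue) and the GFP sort (green) for named pathway genes. Genes are grouped by list, with SE bars and open points where not called. Drawn are up to 3 called genes per list, direction and sort with a mean of at least 5 RPKM in the higher group. Other called genes of the lists are not drawn. Pgf and Sema3f lay to the right of 0 in both sorts, and Figf, Sema3a, Ctgf and Reln lay to the left of -3 in both sorts.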

How the data were processed

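RNA from 19 libraries in 7 groups was sequenced with a stranded Kapa kit, and was extracted with the RecoverAll or the RNeasy Micro kit, per the labels' protocols, which do not assign kits to libraries. TopHat2, Partek and mm10 (GRCm38) are named, per the submitters' processing notes. Use of strand in counting is not given in the sources used here. For each stage the authors deposited values headed TPM that behave as RPKM: their sums varied by 7.99% (E16.5) and 13.8% (E14.5, coefficient of variation), and after multiplication by exonic length (GENCODE M21) by 2.7% and 2.91%. The design had assumed TPM, for which the test is the same. The stages were normalised, and so tested, separately. Depth was estimated from low values. Of these, 54.7% to 68.4% lay within 0.05 reads of a whole number, so reads were not recovered and no counting intervals are given.

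Values as log2(RPKM + 1), which understates changes of low genes, were compared with limma 3.58.1 in R 4.3.3, with eBayes, a trend on mean level and two-sided tests. Tested genes had at least 1 RPKM in at least 3 (E16.5) or 2 (E14.5) libraries. The E16.5 fit used all 15 libraries (10 residual degrees of freedom), and the E14.5 fit had 2. The code was tested on simulated data. Python 3.11.15 ran the rest, with matplotlib 3.10.9, numpy 2.4.6 and pandas 2.3.3.

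The 10 genes and all lists were chosen with earlier results of these data known. Named pathway genes are up to 3 per list and direction with the greatest called change and a mean of at least 5 RPKM in the higher group. Likeness names the 3 genes with the highest r, with predicted genes left out. Other genes were named after their values were seen. In each stage 27 names had been turned into dates and are not named. Alternatives were pseudocounts of 0.1 and 5, no filter or at least 5 RPKM, other scalings, no variance trend, a replicate block, the compared groups alone, and each library left out. Replicates 1 and 2 alone, and the alternatives for pathway genes, were added after seeing the data.

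Same-numbered libraries deviated together from their group means, across genes, for SIX2+ with SIX2- (r = 0.64, 0.28 and 0.68), GFP+ with GFP- (0.45, 0.45 and 0.39) and SIX2- with NZC (0.42, 0.19 and 0.50), and these were taken as paired from this check alone. For SIX2+ with NZC (0.28, 0.06 and 0.30) and Tdt+ with Tdt- (0.40) pairing was left undecided. The values for SIX2+ with NZC overlap those of SIX2- with NZC. If SIX2- pairs with both SIX2+ and NZC, SIX2+ and NZC would be paired too. Libraries of different numbers were not compared, so the check cannot settle the pairing. The main fit, and so the main calls and counts, left all pairing out, and the replicate block was run as an alternative.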

Additional observations from a re-analysis of the deposited data

How the results depend on the processing

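Over the 60 differences of single members and all alternatives run, 913 values kept their direction and their side of the threshold, 61 lost a call, 35 gained one and 48 changed sign. Causes were not tested.

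The number of members called was 1 in the SIX2 sort with a pseudocount of 5, and 3 in the Tdt sort with no filter. For SIX2- against NZC it was 4 with the replicate block, 1 with a pseudocount of 0.1, a minimum of 5 RPKM, quantile normalisation or median-of-ratios scaling, and 0 with no filter, rescaling to equal sums or the compared groups alone. For the difference between the sorts it was 1 (Vegfc) with the replicate block or the compared groups alone. Leaving out 1 library gave 2 to 5 members in the SIX2 sort, 4 to 6 in the GFP sort, 4 to 9 in the Tdt sort, 0 for the difference between sorts, 5 to 10 for SIX2+ and 0 to 6 for SIX2- against NZC.

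Over all genes, 229 were called in the Tdt sort with no filter, 523 with a minimum of 5 RPKM and 2307 with the replicate block. Those 2 Tdt pairs had r = 0.40, within the 0.39 to 0.45 of the GFP sort. With 2 libraries per group both pairs give the same r, so their pairing was left undecided. Pairing of SIX2+ with NZC libraries was left undecided too. In these 2 comparisons, the block gave calls to Tek (adjusted p = 0.00225) and Angpt2 (0.0301) in the Tdt sort, and to Vegfa (0.0324), Vegfc (0.0279) and Angpt2 (0.0252) in SIX2+ against NZC. For the difference between sorts, 38 genes were called with a pseudocount of 5, 11 with no filter, 8 after rescaling, 84 with the block, 138 with the compared groups alone and 0 with replicates 1 and 2. The compared groups alone gave 1879 genes for SIX2+ and 21 for SIX2- against NZC, where rescaling gave 774, the block 2603 and replicates 1 and 2 278. Leaving out 1 library gave 2277 to 4219 (SIX2), 3099 to 5704 (GFP), 342 to 3336 (Tdt), 1 to 91 (difference), 3360 to 5574 (SIX2+ and NZC) and 364 to 2425 genes (SIX2- and NZC). The split of higher and lower calls moved from 1073 and 2036 to 1445 and 1717 (SIX2, quantile), from 2035 and 2183 to 1319 and 2251 (GFP, rescaled), from 151 and 893 to 213 and 567 (Tdt, quantile), from 2320 and 2377 to 1203 and 2408 (SIX2+ and NZC, rescaled) and from 661 and 763 to 146 and 628 (SIX2- and NZC, rescaled). For the difference between sorts it moved from 6 and 12 to 7 and 8 (quantile) or 7 and 7 (median-of-ratios). Rescaling moved the Tdt median of all genes from -0.04 to -0.26.

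Changes of sign fell on differences that were not called. With replicates 1 and 2 they were Vegfc 0.12 and Flt4 -0.18 (SIX2), Vegfb 0.00 (GFP), and Vegfa 0.11, Vegfb -0.10, Kdr -0.11, Flt1 -0.04 and Tek -0.03 (difference between sorts). Flt4 in the GFP sort was 0.00 with a pseudocount of 5 and 0.29 after quantile normalisation. In the difference between sorts, Vegfa was 0.00, Angpt2 -0.33 and Tek -0.09 with a pseudocount of 0.1, Vegfa 0.07 and Tie1 0.08 after rescaling, and Vegfa 0.03 (quantile) and 0.08 (median-of-ratios). Leaving out 1 library gave ranges across 0 for Vegfb (-0.25 to 0.10), Vegfc (-0.37 to 0.12) and Flt4 (-0.10 to 0.23) in the SIX2 sort, Flt4 (-0.18 to 0.17) in the GFP sort, Vegfa (-0.69 to 0.16) in the Tdt sort, and Vegfa (-0.07 to 0.32) and Angpt1 (-1.03 to 0.01) for SIX2- against NZC. For the difference between sorts they were Vegfa -0.21 to 0.22, Vegfb -0.10 to 0.25, Kdr -0.13 to 0.66, Flt1 -0.16 to 0.32, Flt4 -0.11 to 0.25, Angpt2 -0.35 to 0.69, Tek -0.17 to 0.32 and Tie1 -0.58 to 0.32.

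Low levels limit the comparisons of Kdr, Flt1, Tek and Tie1, each under 0.3 RPKM in SIX2+ and GFP+ libraries. The groups hold 2 or 3 libraries, and for the named genes the calls that 1 library ended are given beside the results.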
